A study of Sinonovacula constricta with 9 samples.

Results

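The razor clam Sinonovacula constricta is a burrowing bivalve of estuarine mudflats. In whole juveniles, 15 days after fertilization, 131 unigenes (assembled transcript clusters) stood higher after 6 h at 25 psu (high salinity) than at 15 psu (the control, labelled optimal), with a mean within 1.5-fold of the control at 5 psu (low salinity). They were chosen by their FPKM values (fragments per kilobase of unigene, scaled to the reads mapped in each library) from 15060 unigenes past an abundance filter, out of 246672 listed. The filter asked for a mean of at least 5 FPKM over the 9 libraries and at least 300 counts in all, and left out the 100 unigenes with the most counts. A member had all 3 libraries at 25 psu above the other 6, a ratio of mean FPKM at 25 to 15 psu of at least 2, and a ratio at 5 to 15 psu within 1.5-fold either way. Salinity is given in practical salinity units (psu). Each salinity had 3 libraries, and the labels name no strain, sex or separate culture. The p-values below thus rest on library-to-library spread, which may be technical.

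Marine bivalves are osmoconformers: the salt concentration of their body fluid follows that of the water. When salinity rises, cells lose water and regain volume slowly, largely by building up free amino acids and related small organic solutes through synthesis, protein breakdown and uptake, while ion pumps and chaperones are commonly engaged as well. The files give no gene name for any unigene, so none of the 131 can be placed in these pathways here, and each is described by its values, its length and its place in the assembly. In RNA from whole animals, more RNA per cell and more cells of a type cannot be told apart.

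The libraries held from 15897903 to 18427234 estimated counts, and TMM scaling factors ran from 0.926 to 1.07. Fewer unigenes had a count in the libraries at 25 psu (145327 to 151317) than in the other 6 (153184 to 162981). Control replicate 2 held 655 unigenes found almost wholly in that library, against 4 to 16 in each of the others. Such a unigene had 90% of its counts or more in 1 library, and 30 counts or more in all. No member was among these. For libraries at 5 and 15 psu the rule all but fixed this, since it asks all libraries at 25 psu to stand higher. Effective lengths implied by the deposited counts and FPKM were on average 10.05 nucleotides shorter at 25 than at 15 psu and 3.09 shorter at 5 than at 15 psu over well-counted unigenes. In the members the implied length at 25 over that at 15 psu had a median of 0.991, as it had over all unigenes past the filter. The length covariate given below enters a model of counts, so it does not measure what length does to FPKM.

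The rule's first condition, all libraries at 25 psu above the other 6, held for 2309 of the 15060 unigenes (15.3%). Of these, 240 also had a 25/15 ratio of at least 2. Among the 240, the ratio at 5 psu lay at or below the lower limit for 86, at or above the upper limit for 23, and between the limits for the 131 members, 0.870% of the unigenes past the filter. The mirror rule, lowered at 25 psu with a mean within 1.5-fold of the control at 5 psu, was met by 48 unigenes. All these values chose the members, so they are a description and carry no test.

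**Figure D1:**
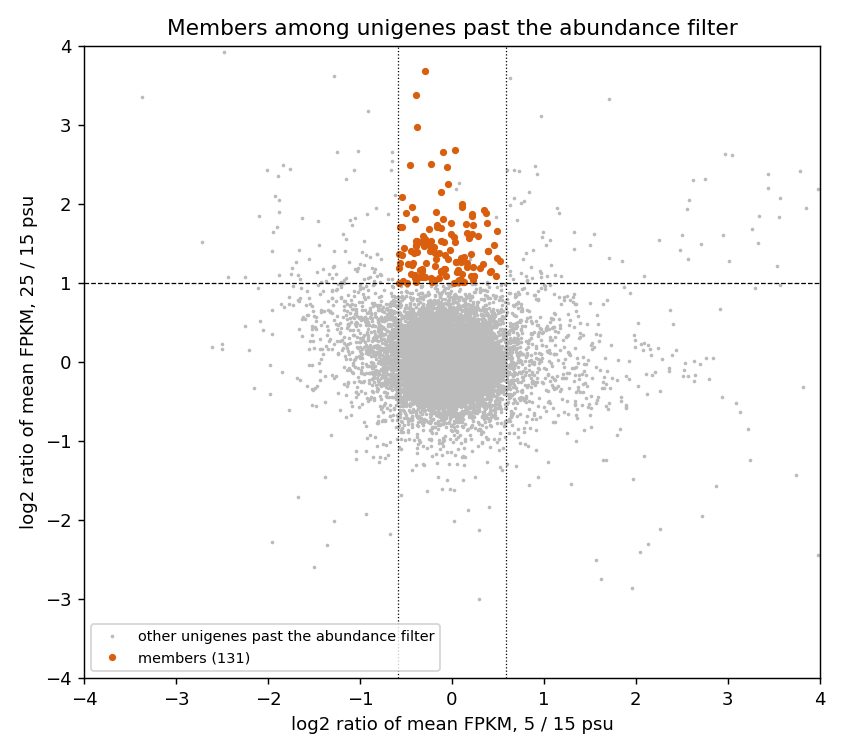
Each point is 1 of the 15060 unigenes past the abundance filter, with the log2 ratio of mean FPKM at 5 to 15 psu on the x axis and at 25 to 15 psu on the y axis; 29 lie outside the axes. The 131 members (orange) lie above the dashed line at a ratio of 2 and between the dotted limits of 1.5-fold, where the rule puts them.

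The ratios of the members ran from just above the rule's limit to 12.8. The 25/15 ratio had a median of 2.59 (quartiles 2.21 and 3.14), was under 2.5 for 61 members, at least 3 for 38, at least 4 for 12 and at least 8 for 2. The median over all unigenes past the filter was 1.005. The lowest library at 25 psu was at least 2 times the highest of the other 6 for 57 members and under 1.2 times for 5, with a median of 1.90 times. The median member had a mean of 20.5 FPKM at 25 psu, 7.67 at 15 psu and 7.18 at 5 psu, where the median of all unigenes past the filter was 10.7, 10.4 and 10.3 FPKM. At 25 psu the mean was at least 100 FPKM for 8 members, between 50 and 100 for 17, between 20 and 50 for 42, and under 20 for 64.

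Together the members took up about 3 times as much of the library at 25 psu as at 15 psu. Their summed FPKM was 4923, 5042 and 5161 in replicates 1, 2 and 3 at 25 psu, 1667, 1701 and 1564 at 15 psu, and 1452, 1507 and 1489.6 at 5 psu. Their share of all counts was 0.659%, 0.677% and 0.692% at 25 psu, 0.221%, 0.241% and 0.219% at 15 psu, and 0.200%, 0.208% and 0.211% at 5 psu. The libraries at 25 psu lie far above the rest, as the rule demands, and those at 5 psu lie below those at 15 psu by a small margin in both sums. The 10 members with the highest level at 25 psu made up 35.9 to 37.6% of the summed FPKM there, 29.1 to 30.3% at 15 psu and 24.6 to 27.6% at 5 psu.

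**Figure D2:**
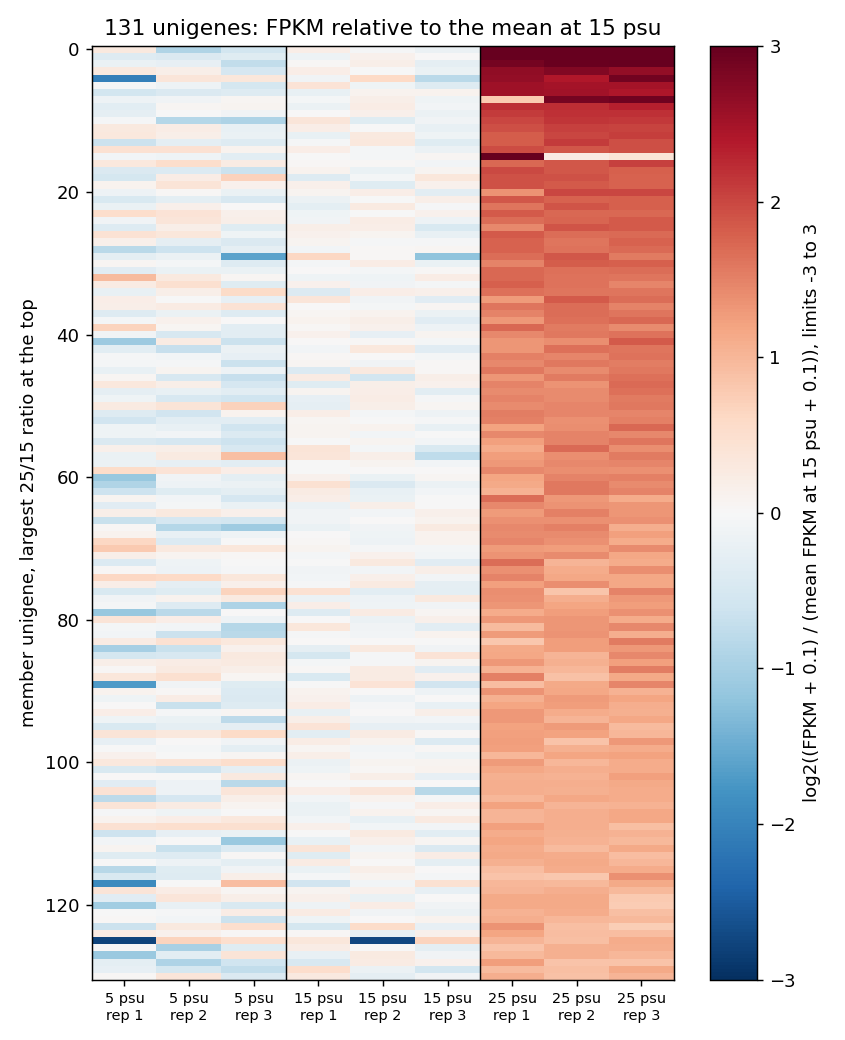
Rows are the 131 members, ordered by the 25/15 ratio, and columns the 9 libraries; color gives log2 of FPKM over the mean at 15 psu, each + 0.1, from blue (-3) to red (3). The columns at 25 psu are red in nearly every row, except that Cluster-8005.119475 and Cluster-8005.114749 have pale cells there, and single dark blue cells at 5 and 15 psu mark libraries where a member stood far below its own group.

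The 2 largest ratios belonged to unigenes that are near neighbours in the assembly numbering. Cluster-8005.151340 stood at 47.4, 32.1 and 36.7 FPKM in replicates 1, 2 and 3 at 25 psu, at 3.36, 2.84 and 2.57 at 15 psu, and at 3.60, 1.51 and 1.97 at 5 psu. Cluster-8005.151342 stood at 47.1, 44.6 and 53.4 FPKM at 25 psu, 4.08, 5.03 and 4.61 at 15 psu, and 3.46, 3.37 and 3.54 at 5 psu. In both, every library at 25 psu was over 8 times any other, a gap of 8.93 and 8.87 times from the lowest library at 25 psu to the highest elsewhere. Their ratios of mean FPKM were 12.8 and 10.4 against 15 psu, and 15.8 and 13.6 against 5 psu. At 5 psu the first overlapped the control, while all 3 libraries of the second lay below it. The first rests on few reads at 15 psu, with 21, 19 and 15 counts, and the second on 88.2, 118 and 95.8.

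Members both abundant and strongly higher followed. Cluster-8005.123191, the most abundant of the 10 with the largest ratios, held 244, 261 and 288 FPKM at 25 psu, 34.6, 38.1 and 27.9 at 15 psu, and 29.0, 28.2 and 20.1 at 5 psu. Cluster-8005.111137 held 179, 194 and 176 FPKM at 25 psu, 32.5, 28.1 and 24.5 at 15 psu, and 34.7, 32.2 and 19.9 at 5 psu. The ratios to 15 psu were 7.87 and 6.45, and in both the libraries at 5 and 15 psu overlapped. Cluster-8005.120819 held 188, 189 and 205 FPKM at 25 psu, 35.8, 47.5 and 38.3 at 15 psu, and 32.4, 42.3 and 42.8 at 5 psu. Cluster-8005.111474 held 134, 144 and 145 FPKM at 25 psu, 31.8, 35.0 and 27.9 at 15 psu, and 26.3, 31.1 and 29.4 at 5 psu. These were 4.78 and 4.46 times the control at 25 psu and 0.967 and 0.918 times at 5 psu, again with overlap between 5 and 15 psu.

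Cluster-8005.117301 combined a large ratio with a shift at 5 psu. It stood at 99.7, 97.0 and 92.2 FPKM at 25 psu, 14.5, 18.2 and 18.2 at 15 psu, and 11.5, 12.5 and 13.0 at 5 psu, so that the 3 groups were apart. Its ratio was 5.65 at 25 psu and 0.728 at 5 psu. It is also among the longest of the named members, with an implied effective length of 4071 nucleotides, and held 1002, 1368 and 1213 counts at 15 psu.

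Of the members with the largest ratios, 2 were short. Cluster-8005.136599, with an implied effective length of 123 nucleotides, held 163, 158 and 158 FPKM at 25 psu, 36.9, 25.5 and 21.3 at 15 psu, and 27.2, 25.0 and 19.3 at 5 psu. Cluster-8005.155129, with 119 nucleotides, held 51.7, 43.7 and 61.3 FPKM at 25 psu, 7.58, 12.4 and 4.60 at 15 psu, and 1.89, 10.6 and 10.4 at 5 psu. The first was nearly constant at 25 psu, and the second varied by more than 2-fold at 15 psu and by more than 5-fold at 5 psu, where replicate 1 was low. Both kept all libraries at 25 psu well above the rest, with ratios of 5.70 and 6.31. The counts behind Cluster-8005.155129 at 15 psu were 16.9, 28.8 and 9.

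**Figure D3:**
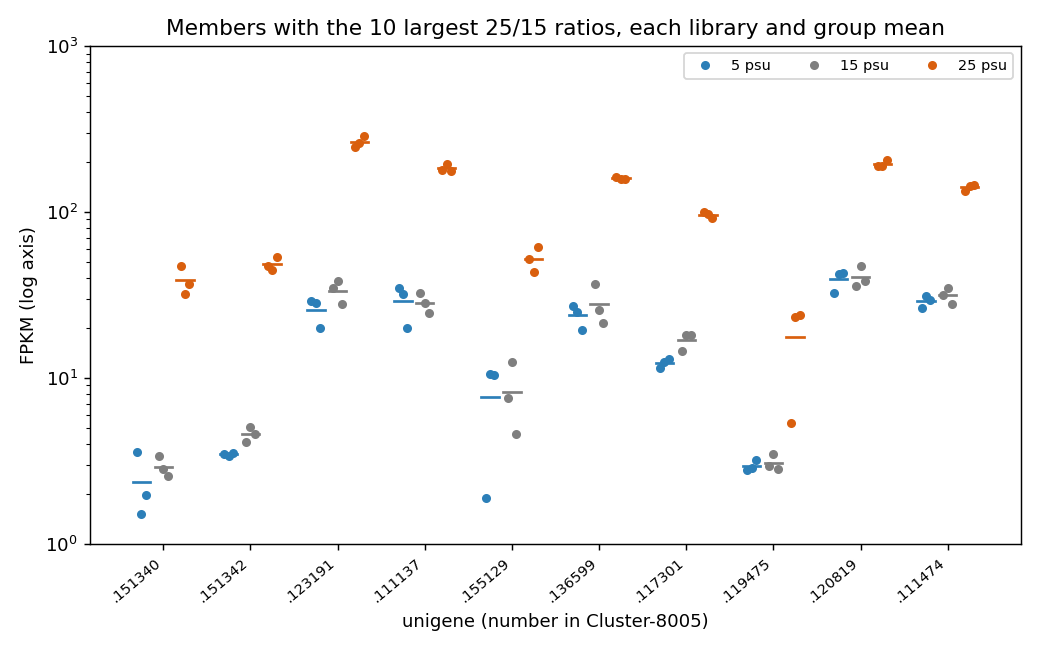
FPKM on a log axis for the 10 members with the largest 25/15 ratios, with 3 points per salinity (1 per library) and a bar at the group mean. Points at 5 psu (blue) and 15 psu (grey) mix for most of the 10, and Cluster-8005.119475 has 1 library at 25 psu, at 5.36 FPKM, close to its values at the other salinities.

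Among the members with the highest levels at 25 psu, 4 had smaller ratios, and their means at 5 psu were 0.678 to 0.839 times those at 15 psu. Cluster-8005.120300 had the highest mean of all members at 25 psu, with 235, 278 and 301 FPKM, against 99.2, 106 and 93.3 at 15 psu and 73.2, 70.0 and 64.5 at 5 psu. Its groups were apart, with ratios of 2.73 at 25 psu and 0.697 at 5 psu. Cluster-8005.106853 held 177, 222 and 222 FPKM at 25 psu, 85.4, 68.6 and 81.2 at 15 psu, and 35.4, 72.8 and 64.2 at 5 psu. Cluster-8005.106395 held 87.7, 96.7 and 104 FPKM at 25 psu, 30.9, 47.6 and 42.2 at 15 psu, and 18.2, 23.1 and 40.4 at 5 psu. In both of these the libraries at 5 and 15 psu overlapped, and replicate 1 was the lowest at 5 psu. Cluster-8005.88455 held 260, 247 and 247 FPKM at 25 psu, 103, 85.8 and 80.7 at 15 psu, and 69.0, 59.9 and 97.1 at 5 psu. That level is the least certain of the 4: the implied effective length was 24.2 nucleotides, so FPKM of this size came from 55, 45 and 32 counts at 15 psu.

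For 3 members the FPKM ratio was 2.42 to 3.10 times the ratio of CPM (counts scaled to a fixed library size, with no account of length). FPKM divides counts by an effective length estimated for each library, and in these unigenes that length differed between libraries. Cluster-8005.119475 stood at 5.36, 23.4 and 23.99 FPKM at 25 psu, 2.94, 3.49 and 2.81 at 15 psu, and 2.77, 2.87 and 3.22 at 5 psu, a ratio of 5.56 to the control. Its CPM were 17.3, 18.5 and 17.4 at 25 psu, 9.79, 11.1 and 8.81 at 15 psu, and 9.77, 9.41 and 9.90 at 5 psu, a ratio of 1.79. The implied effective length was 754 and 700 nucleotides in replicates 2 and 3 at 25 psu and 3208 to 3226 in the other 7 libraries. So counts were also higher in every library at 25 psu, and by less than the rule's 2-fold.

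In Cluster-8005.114749 the FPKM was raised mainly in a single library. It stood at 40.2, 5.40 and 5.93 FPKM at 25 psu, 4.48, 4.35 and 4.76 at 15 psu, and 4.28, 4.10 and 3.63 at 5 psu, where the implied length was 140 nucleotides in replicate 1 at 25 psu and 1174 to 1191 in the rest. Its CPM were 5.67, 6.68 and 7.20 at 25 psu and 5.51, 5.10 and 5.48 at 15 psu, a ratio of 1.22 with no overlap between these groups. Cluster-8005.117245, named after its values were seen, held 34.8, 38.9 and 37.2 CPM at 25 psu and 37.9, 36.5 and 36.8 at 15 psu, a ratio of 0.996, while its FPKM were 28.8, 19.5 and 31.1 at 25 psu and 15.1, 8.76 and 8.94 at 15 psu. Its implied length ran from 1156 to 1893 nucleotides at 25 psu and from 2434 to 4219 at 15 psu. On counts, the groups of this last unigene overlap.

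Over all members the 2 measures mostly gave the same size of change. The CPM ratio of 25 to 15 psu was at least 2 for 126 members and under 2 for 5, namely these 3 and Cluster-8005.32075 and Cluster-8005.85843, at 1.99 and 1.98. The mean implied length at 25 psu differed from that at 15 psu by more than 1.5-fold in 2 members, both shorter, which is 1.53% of members, and in 0.0864% of all unigenes past the filter. A smaller change of this kind was seen in all 3 libraries at 25 psu in Cluster-8005.121983, named after its values were seen, with an implied length of 1877, 1915 and 1970 nucleotides at 25 psu and 2605 to 2621 at 15 psu. Its FPKM ratio was 3.70 and its CPM ratio 2.83. Since the rule asked for higher FPKM, it favours unigenes with a shorter implied length at 25 psu. Whether these lengths stand for another transcript form of the same unigene was not tested.

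**Figure D4:**
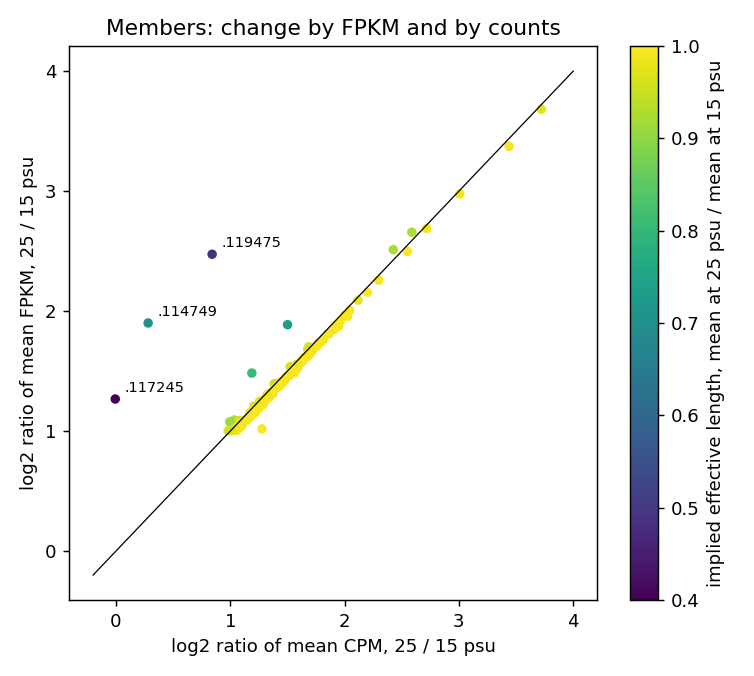
Each point is 1 of the 131 members, with the log2 ratio of mean CPM at 25 to 15 psu on the x axis and of mean FPKM on the y axis; color gives the implied effective length at 25 over that at 15 psu, and the line marks equal ratios. Most members lie near the line, and the 3 labelled members, with FPKM ratios of 2.41 to 5.56 and CPM ratios of 0.996 to 1.79, lie above it, as does Cluster-8005.121983 at ratios of 3.70 and 2.83.

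The members' values were closer together at 25 psu than at the other salinities. The coefficient of variation over the 3 libraries had a median of 8.37% at 25 psu, 14.1% at 15 psu and 17.1% at 5 psu, against 9.55%, 9.66% and 14.5% for all unigenes past the filter. The rule favours this, since a library at 25 psu that strays low ends membership and levels are lower at 15 and 5 psu. The spread at 25 psu was under 10% for 79 members and at least 30% for 2, Cluster-8005.119475 and Cluster-8005.114749. The narrowest was that of Cluster-8005.124919, at 20.7, 20.9 and 20.9 FPKM, against 7.38, 8.02 and 8.58 at 15 psu and 4.99, 5.61 and 5.40 at 5 psu, with no overlap between the 3 groups. Cluster-8005.125968 held 23.99, 23.3 and 23.4 FPKM at 25 psu, with 5.70, 8.66 and 8.37 at 15 psu and 6.51, 8.55 and 11.4 at 5 psu. Cluster-8005.52882 held 24.4, 24.1 and 24.5 at 25 psu, and its values elsewhere spread from 6.35 to 15.3 FPKM. A steady level at 25 psu thus went with steady and with scattered levels at the other salinities. Cluster-8005.122441 was steady at both, with 13.3, 12.9 and 12.8 FPKM at 25 psu and 4.80, 4.86 and 4.89 at 15 psu, and stood higher at 5 psu, at 7.16, 6.51 and 5.57.

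At 5 psu the members leaned slightly below the control. The mean at 5 psu was below that at 15 psu for 81 members and above it for 50, and the median ratio was 0.922, where it was 0.979 over all unigenes past the filter, of which 54.0% lay below the control. The libraries at 5 and 15 psu overlapped for 99 members, while all 3 at 5 psu lay below all 3 at 15 psu for 20 and above for 12. Over all unigenes past the filter these shares were 19.3% and 11.4%, so the members' counts are near the background. In the edgeR fit, 3 members were called lower and 1 higher at 5 psu (adjusted p under 0.05), where 1.6% and 1.26% of all unigenes tested were, and 4.67% and 3.03% of the 15041 past the abundance filter that were also tested. The called members were Cluster-8005.117301 at 0.728, Cluster-8005.124853 at 0.685 and Cluster-8005.124919 at 0.671 times the control, and Cluster-8005.79169 at 1.33 times. The 5 psu values served in choosing the members, so these calls are a description, and they fell to 0 when only the 6 libraries compared were fitted and to 1 without replicate 2 at 5 psu, replicate 2 at 15 psu or replicate 3 at 15 psu, and rose to 9 without replicate 3 at 5 psu. They stood at 2 without replicate 1 at 5 psu or replicate 1 at 15 psu. Of all unigenes tested, 1.68% were called with only the 6 libraries compared, and 1.47 to 3.15% with 1 library left out.

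A small change at 5 psu was not shown for most of the rest. The 95% interval of the log2 change at 5 psu had a median width of 0.75. It was taken from the normal distribution and a standard error derived from the F test. For 73 of the 127 members not called it reached past 1.5-fold in at least 1 direction. With few libraries a group such an interval is too narrow, so the 73 is likely an undercount. The members nearest the limits were Cluster-8005.47407 and Cluster-8005.124919, at 0.670 and 0.671 times the control, and Cluster-8005.127032 and Cluster-8005.86111, at 1.43 and 1.40 times. Just outside stood Cluster-8005.114155 and Cluster-8005.101948, at 0.652 and 0.636 times the control at 5 psu and 4.34 and 6.33 times at 25 psu, and Cluster-8005.151277 and Cluster-8005.115215, at 1.51 times each at 5 psu and 2.31 and 5.39 times at 25 psu. Of these 4, 3 had a ratio at 25 psu above the members' median.

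The same holds at the limit on the 25/15 ratio. The members with the smallest ratios were Cluster-8005.47407 at 2.008, Cluster-8005.47977 at 2.005 and Cluster-8005.85843 at 2.005, with means of 8.72, 9.26 and 21.7 FPKM at 25 psu. Of unigenes that met every other condition, the largest ratios below the limit were 1.996 for Cluster-8005.113454, 1.988 for Cluster-8005.109808 and 1.985 for Cluster-8005.133114, with means of 31.9, 11.3 and 21.9 FPKM at 25 psu. No gap separates the members from unigenes just short of the rule. The abundance filter adds a second edge: 44 members had a mean under 5 FPKM over the 6 libraries at 5 and 15 psu and so passed only through their values at 25 psu, and 27 had under 300 counts there.

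All 131 members were among the 71915 unigenes tested with edgeR. For 25 against 15 psu 114 were called higher (adjusted p under 0.05; 1.67% of all unigenes tested were) and 0 lower (0.679% of all tested), and for 25 against 5 psu 125 higher (6.48% of all tested) and 0 lower (4.63%). Among the unigenes past the abundance filter the shares called higher and lower were 5.13% and 1.31% for 25 against 15 psu, and 15.3% and 7.85% for 25 against 5 psu. With limma on log2(FPKM + 1) or log2(FPKM + 0.1) and with DESeq2, 0 members were also called lower in either. Of all tested, these 3 fits called 0.766%, 0.702% and 1.29% lower for 25 against 15 psu. For 25 against 5 psu they called 5.05%, 4.63% and 5.46% lower. Both comparisons were used by the rule and share the libraries at 25 psu, so nothing is read from these counts. The median log2 fold change of the members was 1.38 for 25 against 15 psu, 1.49 for 25 against 5 psu and -0.10 for 5 against 15 psu, where the medians over all unigenes tested were -0.01 and -0.02 for the first 2 and within 0.01 of 0 for the third. All 114 were also called for 25 against 5 psu, 11 were called only there, and 6 in neither. The 17 members not called against 15 psu had a median of 517 counts in all, and the 114 called a median of 2254. When each library's length offset entered the model, 39 members were called against 15 psu and 107 against 5 psu. Over all unigenes tested, 0.184% and 3.28% were then called higher, against 1.67% and 6.48% without the offset. The members' median log2 fold changes with the offset were 1.46 and 1.54. Their median standard error for 25 against 15 psu, derived from the F test, was 0.29 with the offset and 0.19 without it.

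Libraries that took no part in the choice gave a measure that the rule did not fix. When replicate 1 at 25 psu was left out, the rule on the other 8 libraries chose 122 unigenes, and the left-out library lay above all 6 libraries at 5 and 15 psu for 121 of them, against 26.8% of all unigenes past the filter. With replicate 2 left out this was 125 of 129, against 22.3%, and with replicate 3 left out 127 of 131, against 23.6%. The left-out value was 2.501, 2.58 and 2.504 times the mean at 15 psu in the median unigene, and at least 2 times for 104, 102 and 100 of those chosen (85.2%, 79.1% and 76.3%). Among all unigenes past the filter that ratio was reached by 1.99%, 1.77% and 1.89%. Some of those chosen passed the abundance filter only through the remaining libraries at 25 psu. With both floors of the filter asked of the 6 libraries at 5 and 15 psu, the left-out library lay above those 6 for 77 of 78, 78 of 79 and 84 of 86 unigenes chosen, against 25.6%, 21.1% and 22.4% of all unigenes that met the floors, and the median ratio was 2.503, 2.55 and 2.49. The same libraries at 5 and 15 psu served for the choice and for these measures, which favours a high ratio.

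**Figure D5:**
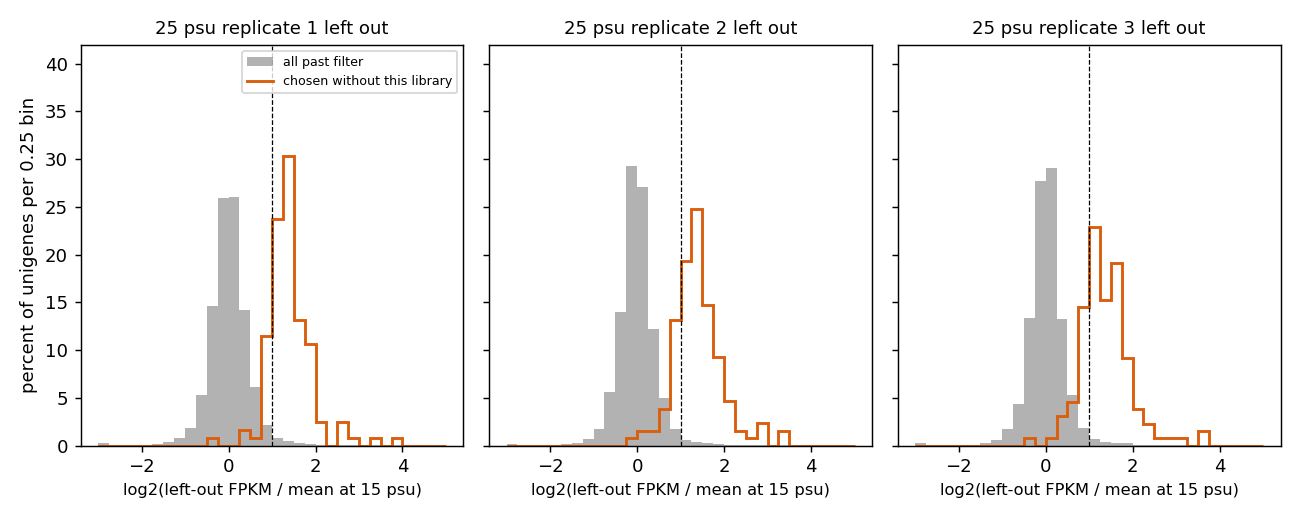
Each panel leaves out 1 library at 25 psu and shows, in bins of 0.25, the log2 ratio of its FPKM to the mean at 15 psu for all unigenes past the filter (grey) and for the 122, 129 or 131 unigenes chosen without it (orange line); the dashed line is a ratio of 2, and values beyond the axis are counted in the end bins. The grey distribution centers on no change, and the orange one on about 2.5 times the control.

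Leaving out a library at the other salinities gave unequal shares for the 2 parts of the rule. A left-out library at 15 psu lay below all 3 at 25 psu for 137 of 139, 151 of 152 and 133 of 133 unigenes chosen without replicates 1, 2 and 3, against 38.6%, 35.8% and 33.7% of all unigenes past the filter. A left-out library at 5 psu lay below all 3 at 25 psu for 135 of 137, 136 of 137 and 129 of 130, against 47.4%, 39.5% and 41.9%. The same 3 libraries at 25 psu served for the choice and as the mark here, which favours these high counts. Abundance floors on the libraries at 5 and 15 psu were not asked in these omissions. The left-out 5 psu value was within 1.5-fold of the mean at 15 psu for 98, 111 and 99 of the unigenes so chosen (71.5%, 81.0% and 76.2%). Of all unigenes past the filter, 79.9%, 86.7% and 82.0% were. These are the unigenes chosen without the library, of which 115, 120 and 114 were members for the omissions at 15 psu and 120, 125 and 122 for those at 5 psu. Closeness of the left-out 5 psu value to the control was less frequent among them than among all unigenes past the filter in each of the 3 omissions, a difference that was not tested. The members' libraries also spread more within both groups compared. Their median coefficient of variation was 17.1% at 5 psu and 14.1% at 15 psu, against 14.5% and 9.66% for all unigenes past the filter. Of the 131 members, 81 were chosen again under each of the 9 omissions and 7 in fewer than 5.

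The members shared no assembly cluster that sets them apart: all 131 belong to Cluster-8005, which holds 178061 unigenes and 99.9% of those past the filter. Within it, members lay close together in number. Another member stood within 5 numbers of 35 members (26.7%), while a member stood that near for 196 of 14909 other unigenes past the filter (1.31%). These 35 form 13 pairs and 3 trios, so the members fall into 112 separate places in the numbering. What the order of the numbers stands for is not given in the sources used here, and whether near-numbered unigenes are parts or copies of 1 gene was not tested. Across unigenes past the filter, which are not independent, the log2 ratio of 25 to 15 psu had a Pearson r of 0.41 between neighbours 1 number apart (3789 pairs), 0.27 at 2 apart (3332 pairs) and 0.01 at 5 apart (3076 pairs). The likeness of close neighbours is thus not peculiar to the members, and neighbours can share reads and libraries.

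The trio Cluster-8005.123108, Cluster-8005.123109 and Cluster-8005.123111 varied together among replicates. The first held 48.1, 76.1 and 75.4 FPKM at 25 psu and 19.96, 21.6 and 15.0 at 15 psu. The second held 20.7, 28.6 and 27.6 FPKM at 25 psu and 8.62, 8.74 and 5.48 at 15 psu, and the third 23.1, 29.7 and 31.1 at 25 psu and 10.1, 10.5 and 7.32 at 15 psu. In all 3, replicate 1 was the lowest at 25 psu and replicate 3 the lowest at 15 psu, with ratios of 3.51, 3.34 and 2.99. Their values at 5 psu were 17.0, 19.4 and 16.5 FPKM in the first, 5.84, 8.65 and 5.93 in the second, and 8.90, 10.1 and 9.43 in the third, each highest in replicate 2 and overlapping the control.

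Near-numbered members did not all vary together. Over the 22 pairs within these groups, the Pearson r of their deviations from the group means over the 9 libraries ran from -0.63 to 0.96. The lowest was that of Cluster-8005.125968 and Cluster-8005.125969. Of the 22, 15 were positive (68.2%), against 58.9% of all pairs of members and 56.0% of pairs past the filter 1 number apart. The median r of these 3 sets was 0.31, 0.14 and 0.09. In another trio the levels differed widely and the highest library at 25 psu was a different one for each member. Cluster-8005.120819 is described above. Beside it, Cluster-8005.120817 held 79.9, 71.3 and 72.8 FPKM at 25 psu, 24.4, 23.5 and 19.2 at 15 psu, and 30.3, 28.2 and 20.5 at 5 psu, and Cluster-8005.120818 held 9.18, 10.9 and 9.51 at 25 psu, 3.50, 3.54 and 4.21 at 15 psu, and 4.22, 4.61 and 4.16 at 5 psu. The ratios to 15 psu were 4.78, 3.32 and 2.59 in the order of level. The third trio, Cluster-8005.121541, Cluster-8005.121542 and Cluster-8005.121543, had mean levels of 16.7, 41.9 and 90.6 FPKM at 25 psu and ratios of 2.40, 2.09 and 2.24. Pairs ran from Cluster-8005.151340 and Cluster-8005.151342, with the largest ratios of all members, to Cluster-8005.85843 and Cluster-8005.85844, at 2.005 and 2.045.

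The members were about as long as other unigenes. The implied effective length had a median of 1177 nucleotides (quartiles 613 and 1948), against 1113 (556 and 2054) for all unigenes past the filter, and was under 300 for 10 members and at least 1000 for 76. Counts were whole numbers in all 9 libraries for 28.2% of members and for 35.4% of unigenes past the filter. For the other members part of the reads were divided with other unigenes, which makes the values of single unigenes uncertain to that extent. No member was without a count in any library, and the lowest count was 3.77.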

How the data were processed

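RNA sequencing was done on 9 libraries of whole juveniles, 3 per salinity, made from Trizol-extracted total RNA with an NEBNext Ultra kit, per the labels' protocols. For each library the deposited values are estimated counts of reads, apportioned by the authors among 246672 unigenes before deposit, and FPKM values to 2 decimals made by the authors from them, per the file headers. The submitters' processing notes list RSEM and Bowtie2 with no version. No source used here gives the assembler, the clustering or the strand setting.

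The abundance filter, the separation and the ratios were computed on FPKM with a pseudocount of 0.1. CPM values are counts over TMM-scaled library sizes. After rounding of the counts, 71915 unigenes passed edgeR's filterByExpr (count minimum 10). These were fitted in 1 model of the 3 groups with edgeR 4.0.16 in R 4.3.3. They were tested with its robust quasi-likelihood F test, with Benjamini-Hochberg adjustment at 0.05 over all unigenes tested. Log2 fold changes come from this fit. A standard error is the absolute log2 fold change over the square root of F. The procedure was also run on simulated counts, drawn independently for each unigene with a spread set by its level. Reads shared between unigenes were not simulated, so that run does not give the error rate in these data. An effective length was computed from each count and FPKM with the library's total, and the offset of a library is the median deviation of these lengths over unigenes that averaged 2000 counts or more.

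Unigenes are named by rank: the 10 largest ratios, the 10 highest levels at 25 psu, the 3 smallest ratios and 3 just outside, the 5 narrowest and 2 widest spreads at 25 psu, and the 2 nearest each limit on the 5/15 ratio. Other names were chosen after their values were seen. The members, lists and tests were chosen with earlier results of these data known. Alternatives were other scalings, filters, thresholds and tools (DESeq2 1.42.0, limma 3.58.1), a replicate block, a length covariate, and leaving out each library. Total counts ran from 15897903 to 18427234, and their precision covers counting error only.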

Additional observations from a re-analysis of the deposited data

How the results depend on the processing

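The size of the set follows its thresholds, since no gap sets members apart. It was 75 and 271 with a minimum mean of 10 and 1 FPKM, 513 and 38 with a ratio of at least 1.5 and 3, 83 with a narrower limit on the ratio at 5 psu and 240 with no limit on it. With FPKM summed per assembly cluster and the largest cluster left out it was 0. That cluster holds all 131 members and 99.9% of the unigenes past the filter, so this 0 was all but fixed in advance. With the minimum of 5 FPKM asked of the 6 libraries at 5 and 15 psu, an alternative chosen after seeing the data, it was 87. On CPM it was 138, of which 125 were members, and with a pseudocount of 1 it was 121, of which 110 were. It ran from 122 to 152 when 1 library was left out.

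The 114 members called for 25 against 15 psu became 83 to 120 with 1 library left out. With the length covariate 39 were called, where the cause was not tested, and the other alternatives run gave 107 to 122. Over all unigenes tested, the share called higher was 0.759 to 2.42% with 1 library left out and 0.184% with the covariate. With the other alternatives it was 0.67 to 4.31%. For 25 against 5 psu the count ran from 112 to 125 with 1 library left out and from 107 to 126 otherwise. The share of all unigenes tested that was called higher ran from 4.13 to 6.25% and from 2.02 to 12.8%. For 5 against 15 psu 4 were called, beside 2.85% of all unigenes tested. With 1 library left out 1 to 9 were called, beside 1.47 to 3.15%, and the 9 came without replicate 3 at 5 psu. It was 8 with at least 50 counts asked in 3 libraries, beside 8.07% of all tested. With only the 6 compared libraries in the edgeR fit it was 0 (1.68% of all tested), and with the length covariate 2 (1.81%). With limma on log2(FPKM + 1) and log2(FPKM + 0.1) it was 2 (3.23% and 2.88%), and with DESeq2's Wald test 12 (4.51%). The counts of left-out libraries at 25 psu above the other 6 moved by at most 1 with CPM or with the median at 15 psu, and became 77, 78 and 84 with both abundance floors asked of the 6 libraries at 5 and 15 psu, chosen after seeing the data, since fewer unigenes were then chosen.

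With the replicate number as a block, 107, 122 and 4 members were called for 25 against 15, 25 against 5 and 5 against 15 psu. Of all unigenes tested, 1.3% and 5.75% were called higher in the first 2, and 2.26% in either direction in the third. Same-numbered libraries deviated from their group means with correlations of -0.11 to 0.33, and 4 of 9 pairs matched best by number, so replicate numbers are treated as names only.

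Of the 24 named members, no log2 fold change of 25 against 15 psu changed sign under the alternatives run. A call was lost for 9 with the length covariate, for 1 with the block, for 1 with limma on log2(FPKM + 1) and for 2 to 4 without any 1 library at 25 or 15 psu. A call was gained for 3 with that limma fit, for 1 with the covariate and for 1 or 2 without a library at 5 psu. Of the 9 lost with the covariate, the log2 fold change was larger in 5 and smaller in 4, by at most 0.28. Cluster-8005.155129 and Cluster-8005.106395 lost it without most of those libraries. Counts at 15 psu were few in Cluster-8005.151340 (15 to 21), which kept its call under each alternative run for the named members. They were also few in Cluster-8005.88455 (32 to 55), which was not called in the main fit. Whether depth bears on how steady the calls were was not tested.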

Other observations

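In 1 member a single library lay far below its own group at 5 and at 15 psu. Cluster-8005.66017 stood at 9.04, 8.26 and 9.70 FPKM in replicates 1, 2 and 3 at 25 psu, at 5.59, 0.58 and 7.05 at 15 psu, and at 0.56, 7.07 and 6.29 at 5 psu. Without the 2 low libraries, the values at 5 and 15 psu ran from 5.59 to 7.07 FPKM. In another member the values at 5 and 15 psu were widely spread. Cluster-8005.66760 stood at 7.53, 7.34 and 8.32 FPKM at 25 psu, 2.45, 3.52 and 5.15 at 15 psu, and 0.92, 3.65 and 7.15 at 5 psu, so its highest library at 5 psu came within 1.03 times of the lowest at 25 psu. Both were chosen for naming after their values were seen.

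By the same thresholds with the salinities exchanged, 168 unigenes were raised and 142 lowered at 5 psu with a mean within 1.5-fold of the control at 25 psu.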
